A study of Homo sapiens with 12 samples.

Results

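Expression of 9 classic target genes of the transcription factor p53 was followed through U937 cells given decitabine (DAC), the retinoid ATRA (all-trans retinoic acid) or both. The 9 genes, CDKN1A, MDM2, SESN1, ZMAT3, TP53INP1, TP53I3, BTG2, FDXR and RRM2B, were chosen by name, as textbook targets, and every row of the read count table that carried 1 of these symbols was taken. They account for 95 of the 197782 transcripts listed and for 9 of 44786 gene symbols. Reads were counted for 27 of the 95 transcripts. U937 is a human myelomonocytic leukemia cell line, and all samples are this 1 line.

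p53 is held at a low level by MDM2, a ubiquitin ligase that marks it for degradation. When DNA damage or another stress frees p53 from MDM2, it binds paired half-sites in DNA and raises transcription of genes that halt the cell cycle, repair DNA, change metabolism or start apoptosis. MDM2 is itself such a target, so the pathway limits its own activity, and several of its target genes are also transcribed through other factors.

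The data are RNA-seq libraries, 3 from each of 4 groups. DAC, a cytosine analogue that depletes DNA methyltransferases, was given at 200 nM on 3 consecutive days with daily renewal of medium and drug. ATRA, a ligand of the retinoic acid receptors, was given at 1 µM, alone or with DAC. Medium for all 4 groups contained 20% FCS and 5 ng/ml GM-CSF per the sample labels, which give a harvest at 72 h for the treated and at 96 h for the untreated cells. The study's text gives the same harvest time for all groups, a lower serum content and ATRA with the last DAC dose only. Where the labels hold, treatment and harvest time cannot be told apart in the comparisons with untreated cells and in the interaction, while the treated groups share 1 harvest time. The 3 libraries of a group are called technical triplicates in the series' design, so the p-values measure only the spread between these libraries, which may be technical. Libraries are named by their group and the running number of their column, 1 to 12. All comparisons with untreated cells share the same 3 untreated libraries.

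Each library held between 8042435 and 10683593 counted reads, with a median of 9874622, and 3 reads corresponded to 2.50 to 3.71 normalized reads. The myeloid markers CD33 (735 to 894 normalized reads), CD4 (3534 to 5057) and SPI1 (94.5 to 181) were present in all 12 libraries, while CD68 had at most 3 reads. The erythroid marker HBA1 had no read, and CD3D, CD3E, MS4A1 and KRT19 had at most 3 reads in any library. EPCAM had at most 10 and COL1A2 at most 8 reads. The fibroblast marker COL1A1 moved with treatment, from a mean of 18.98 normalized reads in untreated to 238 in DAC, 50.8 in ATRA and 145 in DAC + ATRA libraries. The summed level of the 8 myelomonocytic markers, most of it from the granule enzyme gene MPO, was 55100 to 61610 normalized reads in untreated, 26840 to 40830 under DAC, 33450 to 47140 under ATRA and 23450 to 24830 under both. MPO alone, at means of 52580, 26800, 33290 and 15050 in this order, accounted for the lower sums. LYZ, the lysozyme gene, was instead higher with DAC, with means of 164, 806, 179 and 1097, and the transcription factor gene CEBPB was higher in all treated groups, with 692, 1253, 2649 and 2551. The part of these shifts in the results on p53 targets was not tested.

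Sites that resemble the p53 consensus are shown first, since p53 binds its direct targets at such sites. The consensus is a pair of 10-base half-sites, each of 3 purines, C, 2 bases that are A or T, G and 3 pyrimidines, read here with no spacer and with at most 2 mismatches outside the C and G of each. It reads the same on both strands. The hg38 sequence within 5000 bases of the start of each gene in the RefSeq promoter table (GRCh38.p14) was searched for the 7 genes found in that table, CDKN1A, MDM2, SESN1, ZMAT3, TP53I3, BTG2 and FDXR. Capitals mark the core of each half-site, from C to G, and the strand is that of the gene.
CDKN1A, chr6:36676449-36676468: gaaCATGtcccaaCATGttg
MDM2, chr12:68808923-68808942: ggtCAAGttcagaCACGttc
ZMAT3, chr3:179070188-179070207: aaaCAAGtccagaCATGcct
BTG2, chr1:203303642-203303661: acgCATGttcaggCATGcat
The CDKN1A match lies 2265 bases upstream of the start site with 2 mismatches, inside an exon of a longer annotated CDKN1A transcript. The MDM2 match lies 746 bases downstream with 2 mismatches, and the ZMAT3 match 1602 bases downstream with 0 mismatches; both are intronic. The BTG2 match lies 1877 bases upstream with 2 mismatches, in an exon of the divergent transcript BTG2-DT. The windows of SESN1, TP53I3 and FDXR held no match in these letters. Of 35116 promoter windows searched in the same way, 8.01% held at least 1 match and 0.214% one without a mismatch. A match is a description of the sequence and not of binding.

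Since DAC lowers CpG methylation, the 250 bases upstream of each start site were also read for CpG dinucleotides. MDM2 had 33 of them, ZMAT3 31, BTG2 30, CDKN1A 27, SESN1 23, TP53I3 6 and FDXR 4, against a median of 11 over all 35116 promoters. At least 30 CpGs were found in 12.4% and at least 33 in 8.15% of promoters. The windows of BTG2, whose reads changed the most with DAC, and of MDM2, for which no change with DAC was called, are given with CpGs in capitals, cut to the longest stretch outside annotated exons.
BTG2 upstream, chr1:203305316-203305490, plus strand: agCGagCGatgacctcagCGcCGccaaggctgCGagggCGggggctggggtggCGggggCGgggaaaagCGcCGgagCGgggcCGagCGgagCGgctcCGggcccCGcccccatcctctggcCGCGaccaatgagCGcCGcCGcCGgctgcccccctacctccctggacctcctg
MDM2 upstream, chr12:68807927-68808176, plus strand: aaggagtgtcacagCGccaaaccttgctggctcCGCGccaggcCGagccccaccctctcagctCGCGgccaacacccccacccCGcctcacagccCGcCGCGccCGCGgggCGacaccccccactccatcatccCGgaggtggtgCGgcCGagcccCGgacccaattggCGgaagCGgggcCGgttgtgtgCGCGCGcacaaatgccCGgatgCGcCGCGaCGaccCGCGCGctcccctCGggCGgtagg
Methylation was not measured in the table used here.

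How many reads could be assigned to a gene depended on its transcripts. Where every base of a transcript was shared with another one on its strand, 10 reads or more were counted for 2.02% of transcripts, and where at least 1 base was its own, for 33.5%. The main transcript of a gene is its protein-coding transcript with the largest mean value in the 12 libraries. Main transcripts of 5 of the 9 genes, BTG2, SESN1, ZMAT3, MDM2 and RRM2B, passed the filter of at least 10 normalized reads in at least 3 libraries and were tested. These 5 had between 1482 (BTG2) and 6519 (ZMAT3) bases of their own and 581 to 10369 reads over all libraries. The main transcripts of CDKN1A, TP53I3, FDXR and TP53INP1 did not pass. They had 91, 219, 122 and 38 bases of their own, and the 4 genes had 121, 29, 89 and 1 reads in total over all their transcripts. A low value of these 4 genes is therefore no measure of a low level of their mRNA.

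BTG2 showed the largest response of the 5 tested genes. It encodes an antiproliferative protein that recruits the CCR4-NOT deadenylase to mRNA. Its main transcript, ENST00000290551 (hg38, chr1:203305519-203309602, plus strand, 2 exons), had 145, 148 and 122 normalized reads in the untreated libraries. With DAC, it had 1238, 1422 and 1283. With ATRA, it had 386, 355 and 340, and with DAC + ATRA 1622, 1773 and 1705. No library of one group reached the range of another, and the order was untreated, ATRA, DAC and DAC + ATRA.

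The group means of BTG2 were 139 ± 14.5 (SD, n = 3) in untreated, 1314 ± 96.3 in DAC, 361 ± 23.6 in ATRA and 1700 ± 75.5 in DAC + ATRA libraries. DAC raised BTG2 9.49-fold, with a log2 fold change of 3.24 ± 0.11 (SE; limma, adjusted p = 1.47e-15). ATRA raised it 2.60-fold (1.38 ± 0.11, adjusted p = 5.30e-09). The combination raised it 12.3-fold (3.61 ± 0.11, adjusted p = 1.61e-16). All 3 calls were made under each of the 21 alternatives tried. As everywhere in bulk RNA, more cells that express a gene and more RNA per cell cannot be told apart.

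On the log2 scale, the joint effect on BTG2 was smaller than the sum of the single effects. The DAC × ATRA interaction, which is 0 when log2 fold changes add up, was -1.01 ± 0.15 (limma, adjusted p = 2.88e-04), and all 20 alternatives called it. In normalized reads the direction was the opposite: ATRA added 386 with DAC, from 1314 to 1700, and 222 without it, a contrast that was not tested on this scale. The difference of the combination to DAC, 0.37 on the log2 scale, missed the threshold in the limma fit (adjusted p = 0.0192), although the ranges did not overlap. It was called with edgeR (adjusted p = 2.77e-04) and DESeq2 (adjusted p = 3.07e-05), among 6 of 21 alternatives, and the adjusted p ran from 3.07e-05 to 0.0821 over all alternatives. With ATRA as the reference, the combination was 4.71-fold higher (limma log2 2.23 ± 0.11, adjusted p = 7.19e-13).

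**Figure D1:**
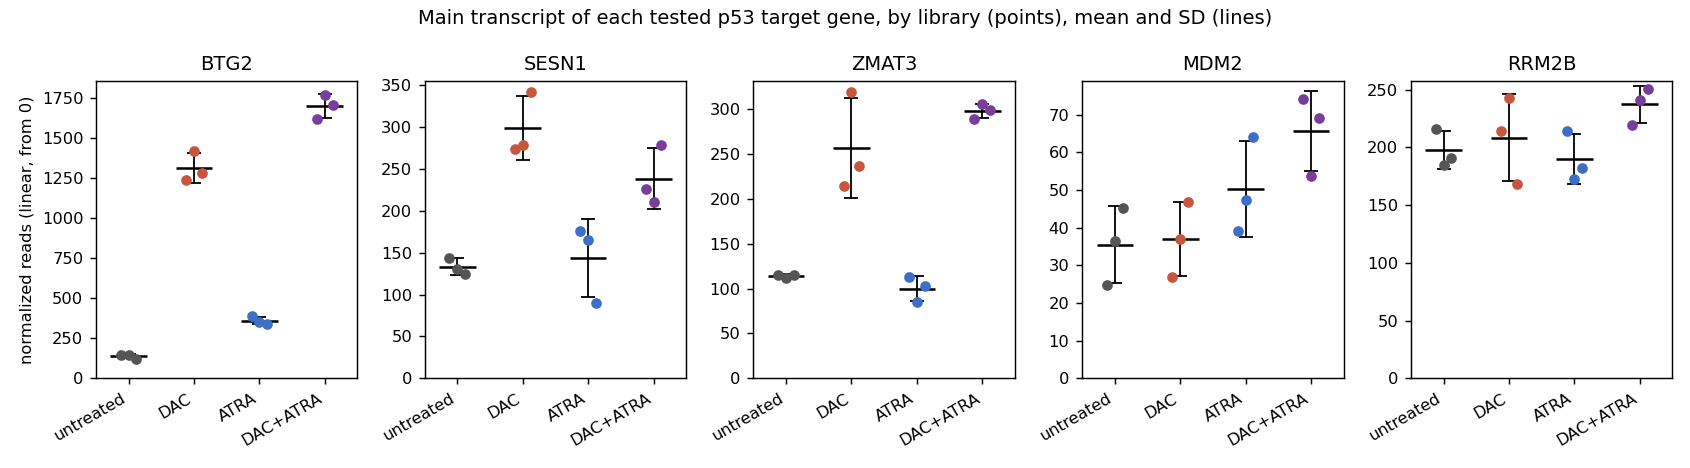
Normalized reads (linear axes from 0, with a scale of its own for each gene) of the main transcript of the 5 tested p53 target genes in the 12 libraries; points are libraries, horizontal lines group means and whiskers SD (n = 3). BTG2 separates all 4 groups, SESN1 and ZMAT3 are higher in both groups with DAC, and the MDM2 and RRM2B ranges of single-agent and untreated libraries overlap.

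SESN1 and ZMAT3 rose with DAC and not detectably with ATRA. SESN1 encodes sestrin 1, which restrains mTORC1 signaling and supports antioxidant defense. Its main transcript, ENST00000436639 (chr6:108984309-109094846, minus strand, 10 exons), had 144, 131 and 125 normalized reads in untreated and 275, 279 and 343 in DAC libraries. With ATRA it had 176, 165 and 89.9, and with DAC + ATRA 226, 211 and 279. All libraries with DAC lay above all libraries without it. ATRA library 9 was the lowest of the 12, which widened the spread of its group to an SD of 46.9 around a mean of 144.

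For SESN1, the mean rose 2.24-fold with DAC (log2 1.15 ± 0.20; limma, adjusted p = 6.77e-05) and 1.79-fold with the combination (0.83 ± 0.20, adjusted p = 0.00141). Without DAC + ATRA library 12, the second of these missed the threshold (0.71, adjusted p = 0.0101). The ATRA effect was 0.05 with a 95% interval of -0.36 to 0.46. Against ATRA alone, the combination was 1.66-fold higher (0.78 ± 0.20, adjusted p = 0.00306), a call lost without ATRA library 9 (0.47, adjusted p = 0.0127) or DAC + ATRA library 12 (0.66, adjusted p = 0.0209). The 6 other SESN1 transcripts had 7 to 63 reads each and did not pass the filter. Of these, the retained-intron transcript ENST00000520364 had 0.924 to 2.73 normalized reads in untreated and 6.49 to 9.74 in DAC libraries.

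ZMAT3 encodes a zinc finger protein that binds RNA and affects splicing and mRNA stability. All of its 2311 reads fell on ENST00000311417 (chr3:179017223-179071809, minus strand, 6 exons), with 115, 112 and 115 normalized reads in untreated libraries. DAC libraries had 214, 320 and 236, ATRA libraries 113, 84.7 and 102, and DAC + ATRA libraries 289, 305 and 299. The groups with and without DAC did not overlap, and the combination libraries fell within the range of the DAC libraries. The change was 2.25-fold with DAC (log2 1.14 ± 0.15; limma, adjusted p = 2.10e-06) and 2.61-fold with DAC + ATRA (1.38 ± 0.15, adjusted p = 1.18e-07). Both were called under all 21 alternatives, and so was the 2.98-fold difference between DAC + ATRA and ATRA (1.57 ± 0.15, adjusted p = 2.45e-08). ATRA alone gave -0.20, with a 95% interval of -0.51 to 0.12.

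MDM2, the ubiquitin ligase of p53 and the target that closes the feedback loop, showed no detectable change with DAC. Its main transcript, ENST00000258149 (chr12:68808177-68845544, plus strand, 11 exons), had 24.8, 36.4 and 45.3 normalized reads in untreated and 27.0, 37.0 and 46.8 in DAC libraries, nearly the same range. ATRA libraries had 39.1, 47.3 and 64.1, and DAC + ATRA libraries 74.1, 53.7 and 69.2. The combination lay above all untreated and all DAC libraries but overlapped with ATRA.

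The DAC effect on MDM2 was 0.06 with a 95% interval of -0.47 to 0.59, so a change of the size seen for SESN1 or ZMAT3 lay outside the interval. The ATRA effect was 0.50 with an interval of -0.03 to 1.03 (limma, adjusted p = 0.221). With DAC + ATRA, MDM2 was 1.85-fold higher than in untreated cells (0.90 ± 0.25, adjusted p = 0.00500). This call depended on the scaling: it was lost with edgeR (adjusted p = 0.0215), DESeq2 (0.0273), library totals (0.0278) and size factors from protein-coding transcripts (0.0237). It was also lost without untreated library 1 or 2 or without DAC + ATRA library 10 or 12, with adjusted p of 0.0118 to 0.0406. Over all 21 alternatives, the adjusted p ran from 0.00168 to 0.0406 and the log2 fold change from 0.67 to 1.09. The interaction term for MDM2 was 0.33 ± 0.36 and was not called.

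RRM2B encodes the p53-inducible small subunit of ribonucleotide reductase, which supplies deoxynucleotides outside S phase. Its main transcript, ENST00000251810, lies on the minus strand of chr8:102204502-102238961 and has 9 exons. It had 216, 185 and 191 normalized reads in untreated, 214, 243 and 168 in DAC, 214, 173 and 182 in ATRA and 220, 241 and 251 in DAC + ATRA libraries. The combination libraries lay above all untreated libraries, but their difference of 0.27 (95% interval -0.03 to 0.56) missed the threshold (limma, adjusted p = 0.119). With DAC the difference was 0.07 (-0.23 to 0.36) and with ATRA -0.06 (-0.36 to 0.24). No comparison called RRM2B under any alternative.

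**Figure D2:**
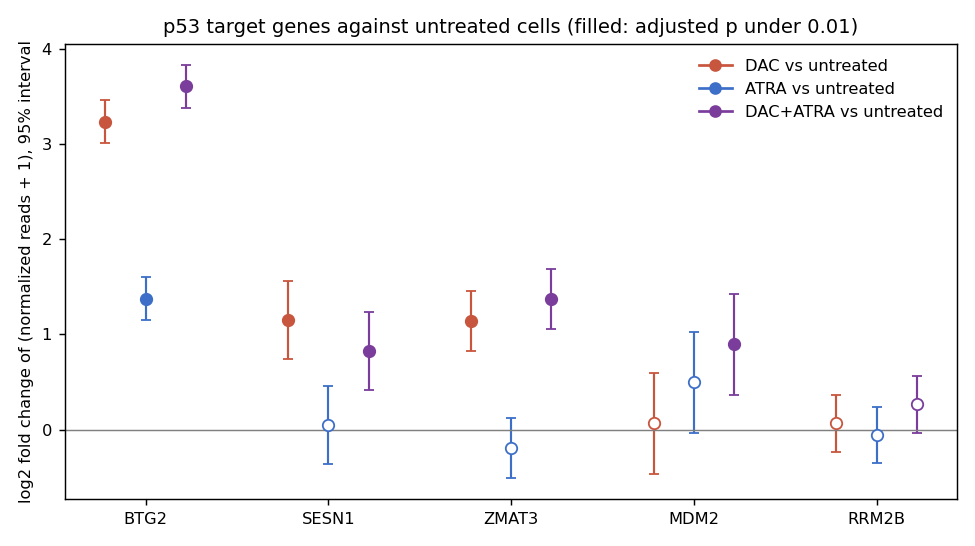
Log2 fold change of (normalized reads + 1) against untreated cells for the 5 tested p53 target genes, from limma, with 95% intervals; filled points passed an adjusted p under 0.01 and the horizontal line marks no change. BTG2 lies above 1 with each treatment, SESN1 and ZMAT3 pass with DAC and DAC + ATRA, MDM2 passes with DAC + ATRA only, a call lost under other scalings, and RRM2B does not pass.

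Counted over the 5 tested genes, 3 rose under DAC, 1 under ATRA and 4 under both, and none fell. Among all 9016 protein-coding transcripts tested, 39.3% were called for DAC (30.6% upward), 9.14% for ATRA (6.47% upward) and 46.8% for DAC + ATRA (32.6% upward). The members' counts stand against these shares, so that a call with DAC or DAC + ATRA was in itself common in these cells. DAC + ATRA against ATRA called 3 members, all upward, against 34.8% of all transcripts (25.9% upward), and the interaction called 1, against 2.46%. DAC + ATRA against DAC called 0 of the 5 with limma, against 11.3% of all transcripts; 2, BTG2 and MDM2, had an unadjusted p under 0.05, against 28.7% of all transcripts. edgeR and DESeq2 each called 1, BTG2, against 14.7% and 14.3%. Over all tested transcripts, log2 fold changes had a median of 0.22 for DAC and 0.20 for DAC + ATRA, which TMM scaling in edgeR brought to 0.02 and 0.06. By limma, 2763 transcripts were called higher and 784 lower with DAC, a split that edgeR gave as 2294 and 1604. The 3 calls with DAC were made under both.

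Per 1000 bases of their own, the untreated means of the 5 main transcripts were 93.5 normalized reads for BTG2, 60.4 for RRM2B, 44.3 for SESN1, 17.5 for ZMAT3 and 8.96 for MDM2. With DAC + ATRA the corresponding levels were 1147, 72.7, 79.2, 45.7 and 16.6. BTG2 was thus the highest and MDM2 the lowest of the 5 in both groups on this scale.

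CDKN1A, which encodes the cyclin-dependent kinase inhibitor p21, could be measured with 121 reads only. Its main transcript, ENST00000373711 (chr6:36678721-36685924, plus strand, 4 exons), had no read in the untreated libraries. It had 5.40, 0.974 and 2.99 normalized reads with DAC, 3.17, 7.28 and 3.33 with ATRA, and the combination gave 6.33, 8.42 and 1.24. Against a floor of 3 reads over the untreated group, these means were at least 3.40-fold higher with DAC, 5.01-fold with ATRA and, for the combination, 5.81-fold. A transcript without an annotated coding sequence, ENST00000462537, held the other 81 reads, 0.924 to 4.60 normalized reads per untreated library and 6.18 to 14.7 per DAC + ATRA library. Among all transcripts that passed the filter it was not called in any comparison (limma, adjusted p = 0.0394 for DAC + ATRA against untreated).

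Summed over its transcripts, CDKN1A had 4.60, 3.64 and 0.924 normalized reads in untreated, 8.65, 0.974 and 7.97 in DAC, 6.34, 25.5 and 10.8 in ATRA and 17.2, 23.2 and 7.41 in DAC + ATRA libraries. The ATRA and the DAC + ATRA libraries all lay above the untreated ones, while DAC libraries overlapped with them. The summed value rose with DAC + ATRA by 2.07 ± 0.61 on the log2 scale (limma over 13528 symbols, adjusted p = 0.00723). CDKN1A reached the filter value of 10 normalized reads in 2 ATRA and 2 DAC + ATRA libraries and in no other, so a difference to untreated was built into its being tested. The rise with DAC + ATRA was called in 13 of 19 alternatives, with adjusted p between 6.29e-04 and 0.0459. It was lost without untreated library 2 or 3, ATRA library 9 or DAC + ATRA library 10 or 11. A pseudocount of 0.1 also lost it (0.0133). With ATRA the value was 1.84 ± 0.61 (adjusted p = 0.0507) and with DAC 0.59 ± 0.61 (adjusted p = 0.438).

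FDXR encodes ferredoxin reductase, which passes electrons to the mitochondrial cytochromes P450 and to iron-sulfur cluster synthesis. Its reads were spread over 5 of 20 transcripts, with 3 of the 89 on the main one, ENST00000544854. Summed, it had 4.60, 3.64 and 2.77 normalized reads in untreated, 3.24, 7.79 and 5.98 in DAC, 3.17, 1.82 and 3.33 in ATRA and 14.5, 21.1 and 18.5 in DAC + ATRA libraries. All 3 DAC + ATRA libraries lay above the other 9. The sum rose by 2.03 ± 0.37 against untreated (limma, adjusted p = 7.01e-05), by 2.34 ± 0.37 against ATRA (adjusted p = 1.68e-05) and by 1.56 ± 0.37 against DAC (adjusted p = 0.00411).

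The first 2 of these FDXR calls were made in all 19 alternatives. The third was made in 12 of 19 and was lost with DESeq2 (adjusted p = 0.0263), a pseudocount of 0.1 or no filter on low values and without DAC library 4 or 6 or DAC + ATRA library 11 or 12, over a range of 0.00251 to 0.0324. The interaction was 1.87 ± 0.53 (adjusted p = 0.0403) and was not called. FDXR passed the filter on low values only through the DAC + ATRA libraries, so a difference to them was built into its being tested. Over all summed symbols, 31.1% were called higher with DAC + ATRA than in untreated, 25.1% than with ATRA and 6.68% than with DAC.

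TP53I3 encodes a quinone oxidoreductase linked to reactive oxygen species. It had no read in the untreated and the ATRA libraries. Its main transcript, ENST00000238721 (chr2:24077433-24084834, minus strand, 5 exons), had 2.16, 2.92 and 5.98 normalized reads with DAC and 7.23, 3.16 and 6.18 with DAC + ATRA. These levels were at least 4.02-fold and at least 6.02-fold above a floor of 3 reads over the untreated group. An exact two-sided permutation test of the summed values gave p = 0.1 for each, the smallest value that 3 against 3 libraries allow. TP53INP1, a stress-induced regulator of autophagy and apoptosis, had a single read, in DAC + ATRA library 12, and was not measurable.

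**Figure D3:**
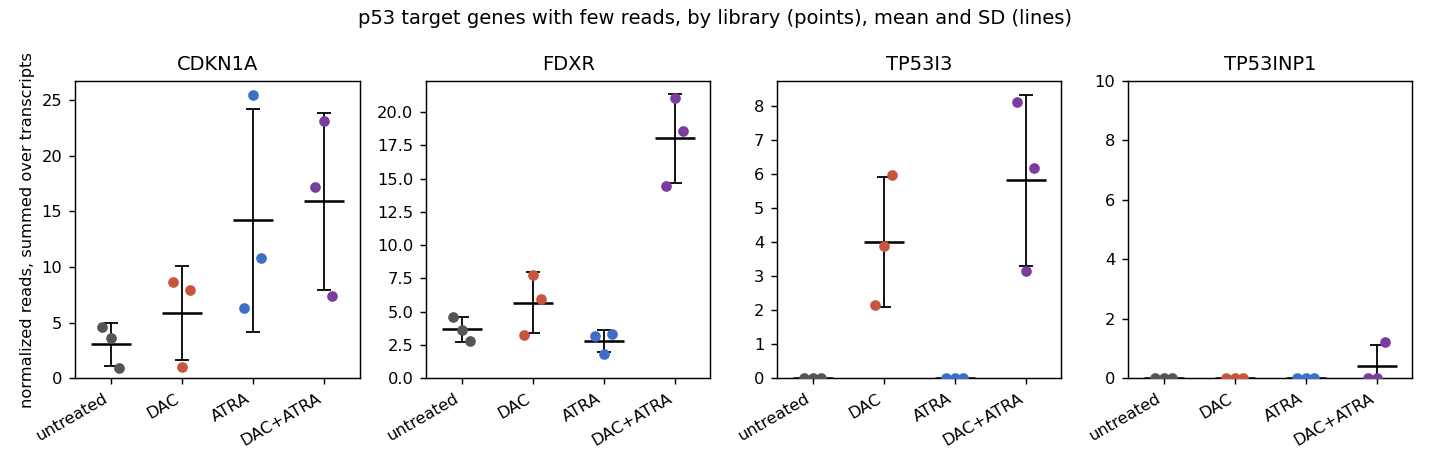
Normalized reads summed over all transcripts (linear axes from 0, with a scale of its own for each gene) of the 4 p53 target genes with few reads, in the 12 libraries; points are libraries, lines group means and whiskers SD (n = 3). FDXR is highest in the 3 DAC + ATRA libraries, TP53I3 has reads only in libraries with DAC, CDKN1A varies widely with ATRA, and TP53INP1 has 1 read.

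Other genes of the pathway were read from 6 lists with 64 genes, 35 of which had a tested main transcript. With DAC, 18 rose, 3 fell and 14 were not called. With ATRA the numbers were 4, 1 and 30, and with DAC + ATRA 21, 3 and 11. Among all 9016 transcripts, as given above, 30.6%, 6.47% and 32.6% were called upward in these 3 comparisons, and 8.7%, 2.67% and 14.2% downward. The counts of each list below stand against these shares. The filter asked for 10 normalized reads in at least 3 libraries, and 7 of the 35 would not have passed it without the libraries with DAC. These 7 account for 6 of the upward calls with DAC and for 7 with DAC + ATRA, so these rises were favoured by the filter. The median log2 fold change of the 35 was 0.36 with DAC and 0.76 with DAC + ATRA, against 0.24 and 0.22 for the main transcripts of all 7620 genes tested. Without those 7 genes it was 0.26 and 0.58. With edgeR, 16 rose and 3 fell with DAC, and 20 rose and 4 fell with DAC + ATRA. Of all transcripts, edgeR called 25.4% upward and 17.8% downward with DAC and 29.2% and 20.3% for the combination. BAX and CYFIP2 were the 2 upward DAC calls it did not make, and each of these was made in 8 of 19 alternatives. Values of the 35 genes are those of 1 main transcript each, and bases shared with other transcripts can limit its reads. Low values, as for CHEK1, PRKAB1 or TNFRSF10B, are therefore no measure of a low level of the gene's mRNA. A change of the main transcript need not be one of the whole gene.

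Among 10 tested regulators of p53, 4 rose and 2 fell with DAC + ATRA, and the same numbers were called with DAC, against 32.6% upward and 14.2% downward of all transcripts for the combination. CDKN2A encodes the kinase inhibitor INK4A and, from another first exon, ARF, an inhibitor of MDM2. Its INK4A transcript, ENST00000304494, rose from a mean of 7.34 normalized reads in untreated to 107 in DAC and 68.9 in DAC + ATRA libraries (limma log2 3.07 ± 0.25, adjusted p = 1.34e-09 for the combination), and would not have passed the filter without the libraries with DAC. The ARF transcript, ENST00000579755, was too low to be tested, with means of 6.43 normalized reads in untreated, 6.38 under DAC, 7.19 under ATRA and 4.51 under both, and its groups overlapped. Other CDKN2A transcripts had more reads than the INK4A transcript in untreated libraries and changed less. ENST00000470819 had means of 37.0 normalized reads in untreated, 53.8 under DAC and 58.9 under both. For ENST00000380151 they were 30.9, 26.4 and 32.4. The rise is thus that of 1 transcript and not of all CDKN2A reads. HIPK2, a kinase that phosphorylates p53, was 1775 in untreated and 3239 under DAC, then 4681 under ATRA and 7076 under both (1.99 ± 0.09, adjusted p = 2.04e-13). HIPK2 was the only regulator called with ATRA alone. The acetyltransferase gene EP300 rose by 1.09 ± 0.11 and USP7, a deubiquitinase of MDM2 and p53, by 0.84 ± 0.16 with the combination. The checkpoint kinase genes CHEK1 and ATR fell by 1.55 and by 0.40. CHEK1 rested on means of 12.2 and 3.38 normalized reads and passed the filter only through 3 libraries without DAC, which favoured a fall. Its call was lost without untreated library 2 or 3 or DAC + ATRA library 12 (adjusted p up to 0.0241). The ATR call was made in 13 of 19 alternatives (0.0522 at most) and was lost without untreated library 1, 2 or 3, without DAC + ATRA library 10 or 12, and with no filter on low values.

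Of 9 tested apoptosis targets, 6 rose with DAC and 6 with DAC + ATRA, and none was called with ATRA. TNFRSF10A, TNFRSF10B, TNFRSF10C and PERP, 4 of the 6 in both comparisons, passed the filter only through libraries with DAC. TNFRSF10A, the gene of the TRAIL receptor DR4, had no read in the untreated and ATRA libraries and means of 290 with DAC and 370 with DAC + ATRA, at least 316-fold and 403-fold above a floor of 3 reads over the untreated group. PERP, a desmosomal protein gene, had no read in untreated libraries and means of 331 with DAC and 191 with DAC + ATRA, at least 360-fold and 208-fold higher. TNFRSF10B, TNFRSF10C and TNFRSF10D were the other TRAIL receptor genes called with both. For TNFRSF10C, the call with DAC + ATRA was lost with edgeR (adjusted p = 0.0131) and DESeq2 (0.0343) and without untreated library 1 or 2 or DAC + ATRA library 11. BAX, a pore-forming protein of the mitochondrial outer membrane, had the lowest called value with DAC + ATRA, 0.71 ± 0.15 (limma, adjusted p = 3.34e-04). Its DAC value of 0.52 (adjusted p = 0.00540) was called in 8 of 19 alternatives. It was lost with edgeR (0.0433), DESeq2 (0.0396), library totals, protein-coding size factors or no filter, and without any 1 of the 6 libraries compared. FAS (0.74, adjusted p = 0.0181) and PMAIP1 (0.52, adjusted p = 0.184) were not called with the combination. FAS was called in 2 of 19 alternatives, with only the groups compared (0.00525) and without DAC library 5 (0.00856). The median of the 9 was 1.90 with DAC and 1.57 with DAC + ATRA, also with TNFRSF10A and PERP set at their bounds, and 0.19 and 0.71 over the 5 that passed the filter without libraries with DAC.

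Only 2 of the 6 cell cycle targets had a tested main transcript. SFN, which encodes 14-3-3 sigma, had means of 1.53 normalized reads in untreated, 233 under DAC, 3.00 under ATRA and 264 under both (limma log2 6.74 ± 0.25, adjusted p = 3.41e-15), and passed the filter only through libraries with DAC. CCNG2, the gene of the atypical cyclin G2, had 382 in untreated, 889 under DAC, 529 under ATRA and 491 under both. It rose with DAC alone (1.22 ± 0.14, adjusted p = 2.96e-07), and its value of 0.38 with the combination was not called (adjusted p = 0.0259). ATRA on top of DAC lowered it by 0.84 (adjusted p = 1.51e-04). CCNG1, GADD45A, PLK2 and PLK3 had 6 to 103 reads in all and were not tested.

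Of 6 tested metabolic targets, 4 rose with the combination and 2 with DAC. FUCA1, a lysosomal fucosidase gene, led with 2868 normalized reads in untreated, 6891 under DAC, 3753 under ATRA and 11450 under both (limma log2 2.00 ± 0.10, adjusted p = 9.32e-13). SESN2, the paralog of SESN1, had the lowest call (0.42 ± 0.12, adjusted p = 0.00541), which was lost with DESeq2 and with size factors from protein-coding transcripts (adjusted p = 0.0122 in each) and with library totals (0.0172). It was also lost without any 1 of the 6 libraries compared (0.0115 to 0.0295), so that 10 of 19 alternatives made it. PRKAB1, a subunit gene of the kinase AMPK, passed the filter only through the DAC + ATRA libraries. Its call was made in 14 of 19 alternatives and was lost with DESeq2 (adjusted p = 0.0173), with a pseudocount of 0.1 (0.0149) and without untreated library 1 or DAC + ATRA library 11 or 12. Of the repair targets, RPS27L rose by 0.82 ± 0.18 with the combination (adjusted p = 4.87e-04) and XPC did not (-0.07 ± 0.13, adjusted p = 0.652).

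Of the 6 other targets tested, 5 rose and 1 fell with DAC + ATRA. GDF15, a secreted stress cytokine of the TGF-beta family, had means of 4.89 normalized reads in untreated, 56.0 under DAC, 16.8 under ATRA and 424 under both (limma log2 6.22 ± 0.30, adjusted p = 2.95e-13). It passed with each treatment, though with ATRA not when only the groups compared were fitted (adjusted p = 0.0104), and it reached 10 normalized reads in treated libraries only. FBXO22, a ubiquitin ligase subunit gene, fell by 1.08 with the combination and by 1.01 with DAC (adjusted p = 6.41e-07 and 2.07e-06).

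**Figure D4:**
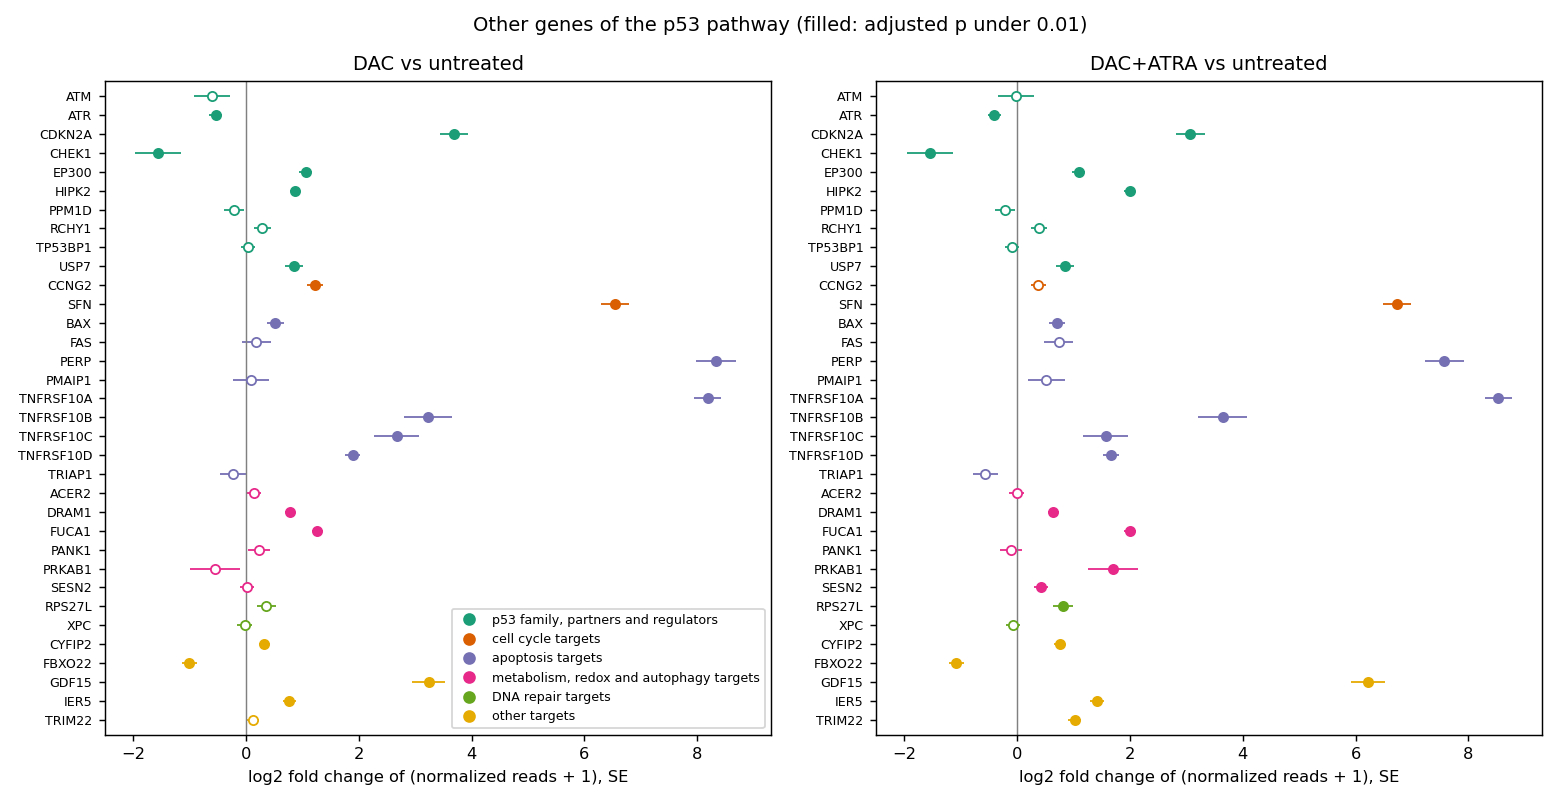
Log2 fold change of (normalized reads + 1) against untreated cells for 34 of the 35 tested genes of the 6 p53 pathway lists, with DAC (left) and DAC + ATRA (right); bars are SE, colours mark the lists and filled points passed an adjusted p under 0.01 in limma. SFN, TNFRSF10A and PERP lie above 6 in both panels, and CHEK1 and FBXO22 lie below -1 in both.

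MDM2 was also compared with the other 3826 symbols whose main transcript had a mean of at least 100 normalized reads. The symbols with the highest Pearson correlation to MDM2 over the 12 libraries, on the log2 scale, were MLYCD (r = 0.872), NADSYN1 (0.865) and TRIM56 (0.860), which is a description of these libraries. The same search for CDKN1A rested on 40 reads and is not read further.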

How the data were processed

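RNA-seq of U937 cells was analysed for 12 libraries, 3 in each of 4 groups. Per the labels and the paper, the authors used STAR for alignment to hg38, HTSeq for counting and DESeq2 for testing. Tool versions, annotation release, counting mode and strand setting are not given in the sources used here. The table deposited by the authors holds signal values: counts of reads per transcript, each divided by the size factor of its library. In each library 100% of values were whole multiples of 1 step (tolerance 0.01 of a read), and reads were recovered from it. The columns give group and a running number, not the replicate numbers of the labels.

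Identifiers were matched to GENCODE 44 (174768 of 197782 transcripts). Protein-coding transcripts with at least 10 normalized reads in at least 3 libraries (9016) were tested with limma 3.58.1 in R 4.3.3 (trend, robust) on log2(normalized reads + 1), all 12 libraries in 1 fit, with Benjamini-Hochberg adjustment and a threshold of 0.01. Fold changes on this scale understate the change of low transcripts. Adjusted p-values are from limma unless edgeR or DESeq2 is named. Floors and steps cover counting error only. The symbols summed over transcripts (13528) were fitted in the same way. edgeR 4.0.16 and DESeq2 1.42.0 on the recovered reads called 3898 and 3670 transcripts with DAC, against 3547 by limma. For DAC + ATRA against untreated, they called 4469 and 4250, against 4215. The fits were tested on simulated data. The planned test assumed either unit, and limma applied to normalized values.

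The 9 genes, the pathway lists and the tests were chosen with earlier results of these data known. From each list, the highest and lowest genes called with DAC + ATRA are named, with every called regulator; FAS, PMAIP1, CCNG1, GADD45A, PLK2, PLK3, XPC, CYFIP2, PRKAB1, PERP, CCNG2, IER5 and the other TRAIL receptor genes were named after their values were seen. Sequences are from RefSeq (GRCh38.p14) and hg38. Tables were made in Python 3.11.15 with pandas 2.3.3 and scipy 1.17.1. Values of other cells and assays were not analysed here, and a few genes are not reported here.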

Additional observations from a re-analysis of the deposited data

Results flagged for a closer look

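The effect of ATRA on BTG2 differed between cells with and without DAC: the DAC × ATRA interaction was -1.01 on the log2 scale (limma, adjusted p = 2.88e-04), with a rise from 139 to 361 normalized reads without DAC and from 1314 to 1700 with it. In normalized reads the increase was thus larger with DAC, 386 against 222, so the direction turns with the scale. CCNG2 was picked out in the same way, with an interaction of -1.32 (adjusted p = 2.31e-04), since ATRA moved it from 382 to 529 without DAC and from 889 to 491 with DAC. For IER5, an immediate early response gene, the interaction was 0.95 (adjusted p = 0.00157), with 1069 and 879 normalized reads without DAC and 1821 and 2856 with DAC. All 3 rest on the same 12 libraries, and of all 9016 transcripts tested 2.46% had such an interaction. Groups of 3 libraries were not screened for single outlying libraries.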

How the results depend on the processing

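With no filter on low values, 5 members were called with DAC (3 in the main fit) and 2 with ATRA (1). The main transcripts of all 9 genes were then tested, and the added calls were CDKN1A and, with DAC, TP53I3. DAC + ATRA against DAC called 1 member in place of 0 with edgeR, with DESeq2, with library totals, with protein-coding size factors and with only the groups compared (BTG2 in each), and with values summed by symbol (FDXR); 2 passed at an adjusted p under 0.05. Leaving out each library in turn gave 2 to 4 called members for DAC + ATRA against untreated (4 in the main fit; 2 without DAC + ATRA library 12) and 0 to 1 for DAC + ATRA against DAC (1 without ATRA library 9). In the other 120 settings of these counts, they stayed within 1.5 times the main count. Values near 0 that were not called changed sign: MDM2 with DAC was -0.14 with edgeR, -0.12 with DESeq2, -0.062 with library totals and -0.11 with protein-coding size factors. RRM2B with DAC was -0.13, -0.096, -0.064 and -0.11 in the same order, and SESN1 with ATRA was -0.020 with library totals. Leaving out libraries gave -0.17 to 0.27 for MDM2 and -0.052 to 0.21 for RRM2B with DAC, and -0.13 to 0.35 for SESN1 and -0.15 to 0.0085 for RRM2B with ATRA. For CDKN1A ENST00000462537 these ranges were -0.84 to 0.45 with DAC, -0.21 to 0.89 for DAC + ATRA against ATRA and -0.13 to 1.22 for the interaction, and for CDKN1A summed by symbol -0.19 to 0.73 and -1.11 to 0.14 for the last 2. Fewer libraries lower the power by construction; the cause of the other shifts was not tested. No paired analysis was possible because the columns of the table carry no replicate number of the labels, so the planned replicate block was not run. Reads on bases shared between transcripts limit CDKN1A, FDXR, TP53I3 and TP53INP1 most, and 3 libraries a group limit every interval.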
